A study of Mus musculus with 4 samples.

Results

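The Tex genes of the mouse are a set of genes named for their expression in testis. The name says where a gene was found and not what its protein does, so the set holds unrelated proteins. Members were all genes of the RNA-seq table whose symbol is Tex followed by digits, with or without a paralog suffix as in Tex19.1 or Tex13b, except Tex12 and Tex15, which the choice of members left out. This gave 35 of the 22808 genes of the table. The values come from 1 RNA-seq library of testis from Piwil1-/- mice and 1 of testis from Piwil1+/- mice, both at postnatal day 23. Piwil1-/- animals lack both working copies of Piwil1, and the Piwil1+/- animals they are set against carry 1 mutant copy themselves. The labels give the mutation only as Piwil1+/- and Piwil1-/-, with no allele or strain for these mice, and they do not say how many animals went into a library.

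Male germ cells pass from spermatogonia, which divide by mitosis, through spermatocytes, which carry out meiosis, to round spermatids and then to elongating spermatids, which build the acrosome and the tail. In a young mouse the germ cells of the first wave move through these stages nearly in step. At this age spermatids have formed only recently. PIWIL1, also called MIWI, is a PIWI protein that binds piRNAs in spermatocytes and round spermatids, and male mice without it are sterile because germ cells do not develop past the round spermatid. Tex genes are known at each of these stages. Tex11, Tex14 and the Tex13 and Tex19 genes act early, and several others encode parts of the spermatid and its tail. A few, such as Tex2 and Tex264, are used in most tissues.

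Levels are the RPKM values deposited by the authors, reads normalised for gene length and sequencing depth, which allow genes of different length to be compared. The depth behind them, inferred here from the RPKM values of short genes, was 100254357 reads for the Piwil1-/- library and 104014686 for the Piwil1+/- library. Differences are given as log2 (RPKM + 1) in Piwil1-/- minus that in Piwil1+/-, which understates the difference of low genes, and as the plain ratio of the RPKM values. With 1 library per genotype there is no replicate check, so no p-value is given. The interval beside a ratio is an exact binomial 95% interval of the smallest read numbers that give both values, and covers counting error only. Where more reads were counted the interval is too wide, so one that holds 1 may do so for that reason. In whole testis, fewer cells of a type and less RNA per cell cannot be told apart. Piwil1 itself was listed at 0 RPKM in Piwil1-/- and was at 26.2 RPKM in Piwil1+/-, matching the labels. Sycp3, a protein of the meiotic chromosome axis, was at 185 RPKM in Piwil1-/- and 163 RPKM in Piwil1+/-, so both libraries hold RNA of meiotic germ cells.

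Of the 35 Tex genes, 30 reached an RPKM of 1 in at least 1 library. The other 5, Tex13b, Tex13c3, Tex28, Tex46 and Tex52, were below 1 RPKM in both. Tex44 and Tex37 passed this filter through Piwil1+/- alone, so they had to be lower in Piwil1-/-. Among the 30, 5 were at least 2-fold lower in Piwil1-/- on the log2 (RPKM + 1) scale, where 1.96% of all 9951 genes that passed the same filter were. The members at least 2-fold higher numbered 2, against 0.231% of all genes. The median log2 difference was -0.25 over the 30 and -0.22 over all 35 members, while that over the 9951 genes was 0.0055. Over the 28 members with an RPKM of at least 1 in both libraries it was -0.17, beside 0.0074 for all such genes. Over the 18 with a mean RPKM of 5 or more it was -0.02, beside 0.0057. The direction below 0 was shared by 19 of the 30 members, beside 48.8% of all genes. The counting interval of the ratio lay below 1 for 16 of the 30 members and above 1 for 8, beside 26.9% and 27.5% of all genes. At this depth an interval that leaves out 1 is therefore common, and it says nothing of differences between animals.

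**Figure D1:**
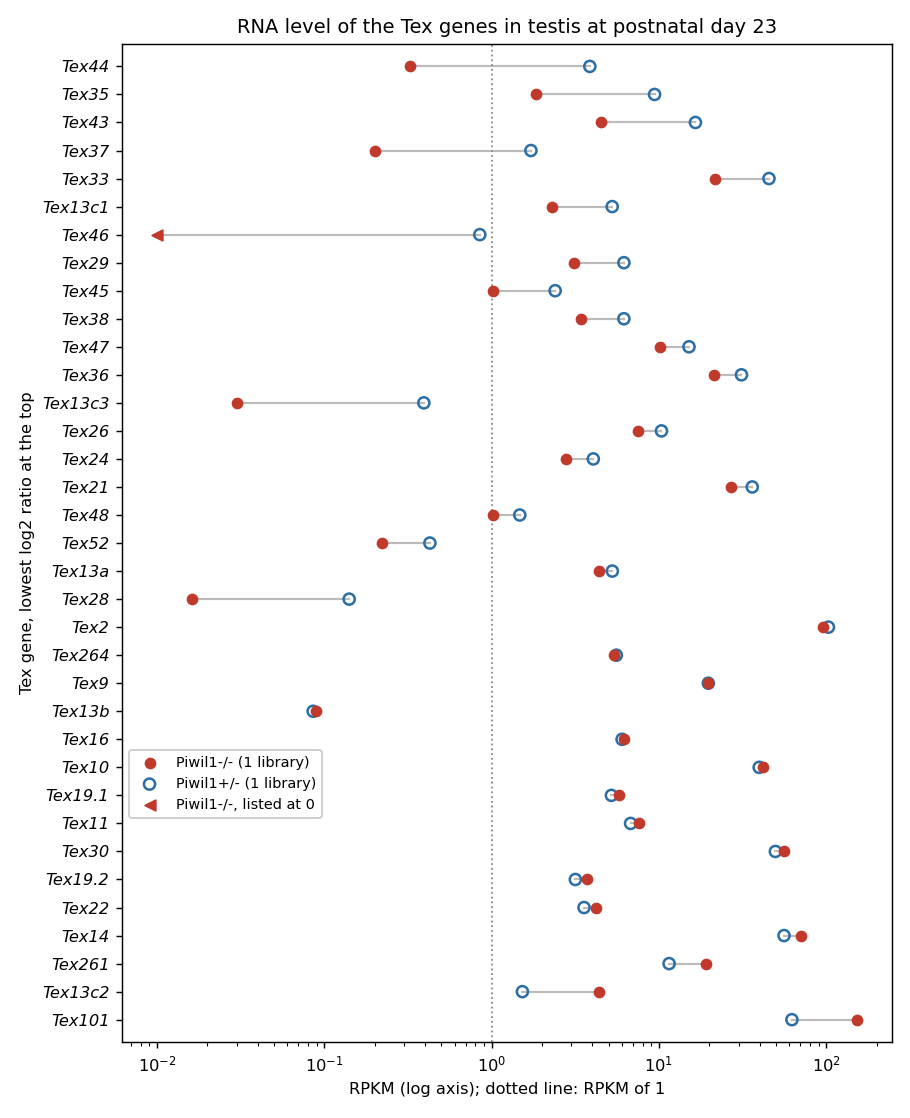
RPKM of each of the 35 Tex genes (log axis), 1 row per gene, ordered by log2 difference with the lowest at the top; filled red points are the Piwil1-/- library, open blue circles the Piwil1+/- library, and the triangle marks Tex46, listed at 0 in Piwil1-/-. The upper rows hold the genes lower in Piwil1-/-, led by Tex44 at 0.326 RPKM in Piwil1-/- against 3.86 RPKM in Piwil1+/-, and the lowest row holds Tex101 at 153.6 RPKM in Piwil1-/- against 62.3 RPKM in Piwil1+/-.

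The members differed widely in level. Tex101 was the highest in Piwil1-/- with 153.6 RPKM, place 109 of the 9951 genes, and had place 548 in Piwil1+/- with 62.3 RPKM. Tex2 followed with 95.2 RPKM in Piwil1-/- and 103.1 RPKM in Piwil1+/-. Tex14, Tex30 and Tex10 were between 41.6 and 70.4 RPKM in Piwil1-/- and between 39.7 and 55.9 RPKM in Piwil1+/-. In Piwil1+/-, 13 members were at 10 RPKM or more and 22 at 5 or more. The set thus reaches from some of the more abundant RNAs of the testis down to genes with a few reads.

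Each member was placed, where its stage is known well enough, in 1 of 5 classes. The classes come from general knowledge and were chosen with earlier results of these data known. Of 8 genes in the table placed with spermatids alone, 7 passed the filter. Of these, 4, Tex44, Tex43, Tex37 and Tex33, were at least 2-fold lower in Piwil1-/-, beside 1.96% of all genes. Tex45 and Tex38 were below 0 by less, and Tex22 was above 0. Tex101, known from both spermatocytes and spermatids, forms a class of its own and was higher. The median log2 difference was -1.03 over the 7, with a range from -1.88 to 0.18. It was -0.75 over the 5 that reached 1 RPKM in both libraries, a filter that leaves out genes low in Piwil1-/-, here Tex44 and Tex37. Among the 5, 2 were at least 2-fold lower, beside 1.43% of all genes under that filter. The members of all other classes together had a median of 0.13 over 14 genes. On the log2 (RPKM + 1) scale, 0 of the 14 were 2-fold lower, beside 1.96% of all genes. On the same scale 2 were 2-fold higher, beside 0.231%. The count of 0 depends on the pseudocount. Tex13c1, among the 14, had a plain ratio of 0.434. Its log2 difference was -1.17 with a pseudocount of 0.1 RPKM and -1.05 with 0.5 RPKM, both past 2-fold. Among the 7 spermatid genes, Tex45 also passed 2-fold with 0.1 RPKM, at -1.15.

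Tex44, a gene of the developing sperm, was at 0.326 RPKM in Piwil1-/- and 3.86 RPKM in Piwil1+/-, from at least 52 and 640 reads. The ratio of 0.0843 (interval 0.0623 to 0.112) was the lowest of the 30 members, and the log2 difference of -1.88 put Tex44 at place 22 from the lowest of all 9951 genes. Tex43 encodes a small protein inside the microtubule doublets of the sperm tail. It was at 4.50 RPKM in Piwil1-/- and 16.5 RPKM in Piwil1+/-, from at least 130 and 495 reads. Its ratio was 0.272 (0.223 to 0.331), and its log2 difference stood at place 46 from the lowest. Its RefSeq span overlaps that of Phax, an RNA export adaptor, which was at 5.82 RPKM in Piwil1-/- and 5.41 RPKM in Piwil1+/-.

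Tex37 and Tex33 are also known as proteins of the sperm tail microtubules. Tex37 was at 0.202 RPKM in Piwil1-/- and 1.72 RPKM in Piwil1+/-, from at least 11 and 97 reads, so its ratio of 0.118 (0.0569 to 0.22) has a wide interval. Tex33 was far higher, at 21.7 RPKM in Piwil1-/- and 45.5 RPKM in Piwil1+/-, the highest level among the spermatid genes. Its ratio was 0.477 (0.450 to 0.506) from at least 1689 and 3670 reads. Tex33 thus holds a difference near 2-fold at a level where counting error is small, and the steeper ratios of Tex44 and Tex37 rest on fewer reads.

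On the log2 (RPKM + 1) scale the other spermatid members were lower by less, with 1 exception. Tex45, whose protein also binds tail microtubules, was at 1.02 RPKM in Piwil1-/- and 2.40 RPKM in Piwil1+/-, a ratio of 0.427 (0.348 to 0.523). Its log2 difference is -0.75, and with a pseudocount of 0.1 RPKM it is -1.15, past 2-fold. Tex38, which works with a palmitoyltransferase in shaping the sperm head, was at 3.44 RPKM in Piwil1-/- and 6.17 RPKM in Piwil1+/-, a ratio of 0.557 (0.469 to 0.661). Tex22, whose protein is found near the acrosome, went the other way: it was at 4.19 RPKM in Piwil1-/- and 3.57 RPKM in Piwil1+/-, a ratio of 1.17 (1.06 to 1.30). Tex22 lies 61 bp from Pacs2 by their RefSeq spans, and Pacs2 was at 3.97 RPKM in Piwil1-/- and 5.48 RPKM in Piwil1+/-. Tex52, below the filter, was at 0.222 RPKM in Piwil1-/- and 0.427 RPKM in Piwil1+/-.

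**Figure D2:**
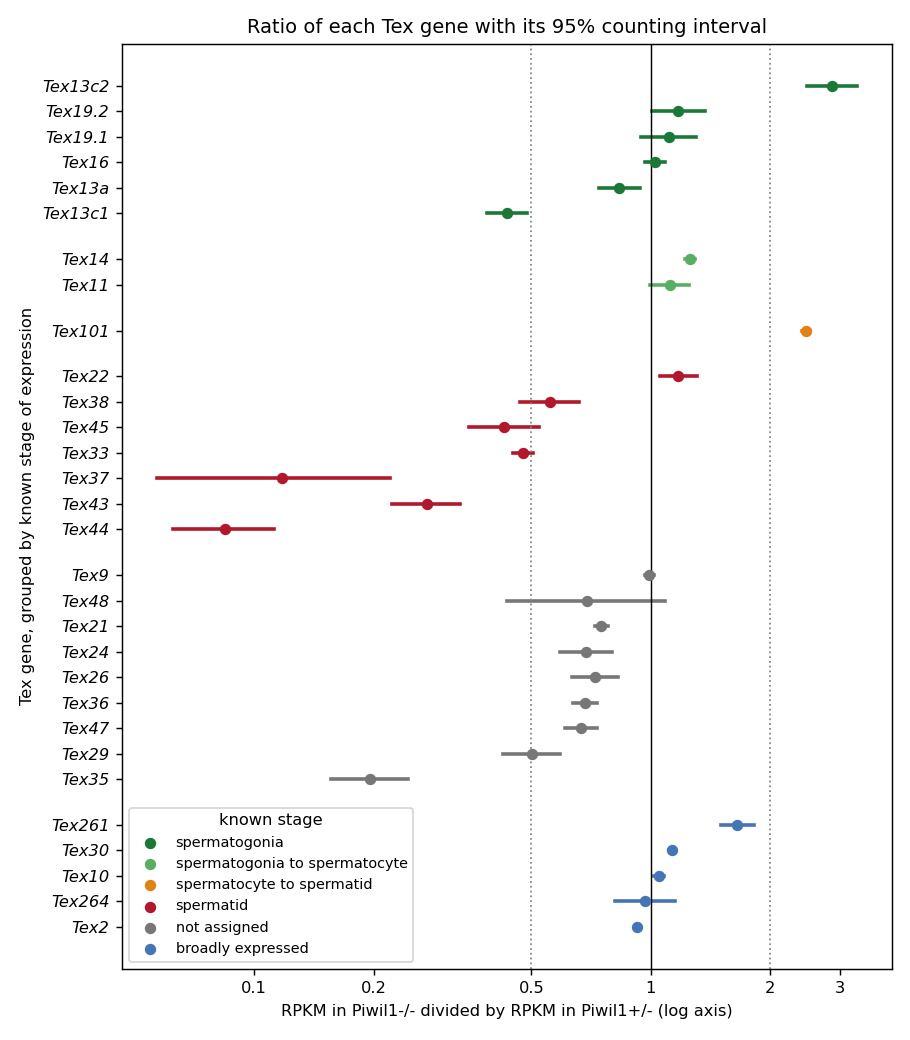
RPKM in Piwil1-/- divided by RPKM in Piwil1+/- (log axis) for the 30 Tex genes at an RPKM of at least 1 in either library, grouped by the stage at which each is known to be expressed; points are ratios, bars are 95% counting intervals, and dotted lines mark 2-fold. Of the 7 spermatid genes only Tex22 lies right of 1, and the unassigned genes lie at or left of 1, with Tex35 farthest left at 0.196.

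A further 9 measured members could not be placed at a stage with certainty, and all 9 were below 0, beside 48.8% of all genes. Their median log2 difference was -0.42. Tex35 stood apart from the other 8. It was at 1.85 RPKM in Piwil1-/- and 9.41 RPKM in Piwil1+/-, from at least 98 and 518 reads. Its ratio was 0.196 (0.157 to 0.244), and its log2 difference stood at place 23 from the lowest, next to Tex44. Tex29 was at 3.09 RPKM in Piwil1-/- and 6.17 RPKM in Piwil1+/-, a ratio of 0.501 (0.424 to 0.591). Tex47 and Tex36 had ratios of 0.668 (0.609 to 0.732) and 0.683 (0.638 to 0.731), with Tex36 at 21.3 RPKM in Piwil1-/- and 31.1 RPKM in Piwil1+/-.

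The other 5 measured unassigned members had ratios between 0.688 and 0.993. Tex21 was at 27.1 RPKM in Piwil1-/- and 36.1 RPKM in Piwil1+/-, a ratio of 0.750 (0.722 to 0.779). Tex26 and Tex24 had ratios of 0.723 and 0.688, and Tex48, from at least 34 and 51 reads, had one of 0.692 whose interval of 0.435 to 1.09 holds 1. Tex9 was level, at 19.6 RPKM in Piwil1-/- and 19.7 RPKM in Piwil1+/-. Its RefSeq span overlaps that of Mns1, a tail protein gene at 143 RPKM in Piwil1-/- and 149 RPKM in Piwil1+/-, and any use of strand in the counting is not given in the sources used here. Tex46, below the filter, was listed at 0 in Piwil1-/- and was at 0.849 RPKM in Piwil1+/-, from at least 22 reads. Set against a floor of 3 reads in the Piwil1-/- library, it was at least 7.07-fold lower by that floor, while the counting interval of its ratio reached up to 0.189 and so allows a smaller fold. Tex28, an X-linked member with no stage assigned here, was at 0.0162 RPKM in Piwil1-/- and 0.141 RPKM in Piwil1+/-, from at least 1 and 9 reads, a ratio of 0.115 with an interval of 0.00263 to 0.832.

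The upstream windows of the lower members were read for 3 kinds of motif linked to genes of meiotic and spermatid cells. The motifs were the RFX short site GTTGCC, the full CRE site TGACGTCA bound by CREM with its short site TGACG, and the Myb site AACNG with its stricter form TAACNG. Both strands were searched; the full CRE site contains the short site, and the stricter Myb form contains the shorter one. Windows run from 250 bases before a RefSeq start to 50 after it in GRCm38.p6, and 29 of the 35 members had 1 or more. The lower genes with a printed window, and Tex101 as the highest of the higher ones, are shown here, each 5′ to 3′ on the gene's strand, with capitals for an RFX short site or, in Tex44, a stricter Myb site. The windows lie at chr1:86426079-86426378 (plus strand), chr1:157108601-157108900 (minus strand), chr6:70918873-70919172 (minus strand), chr15:78395863-78396162 (minus strand) and chr7:24672001-24672300 (minus strand). Tex35 has 3 RefSeq starts that lie close together and Tex33 has 2, and 1 window of each is shown; all 3 Tex35 windows hold the RFX short site, while the other Tex33 window holds none of the RFX, full CRE and stricter Myb sites.
Tex44: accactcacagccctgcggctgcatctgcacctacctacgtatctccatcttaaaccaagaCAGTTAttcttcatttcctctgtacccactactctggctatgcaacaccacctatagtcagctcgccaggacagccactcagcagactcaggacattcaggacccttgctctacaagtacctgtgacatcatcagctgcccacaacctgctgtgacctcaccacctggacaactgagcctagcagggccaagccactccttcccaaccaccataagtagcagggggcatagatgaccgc
Tex35: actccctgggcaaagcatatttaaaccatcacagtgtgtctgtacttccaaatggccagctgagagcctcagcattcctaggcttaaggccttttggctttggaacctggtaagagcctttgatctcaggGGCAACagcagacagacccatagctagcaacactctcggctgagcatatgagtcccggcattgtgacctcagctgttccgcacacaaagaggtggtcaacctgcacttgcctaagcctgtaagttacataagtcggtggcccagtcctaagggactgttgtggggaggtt
Tex37: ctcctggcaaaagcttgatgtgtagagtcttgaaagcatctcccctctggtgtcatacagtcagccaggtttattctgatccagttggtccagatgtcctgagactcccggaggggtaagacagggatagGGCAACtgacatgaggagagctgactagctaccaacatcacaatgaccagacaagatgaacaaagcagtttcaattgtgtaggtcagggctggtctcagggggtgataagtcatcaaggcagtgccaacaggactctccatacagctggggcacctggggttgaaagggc
Tex33: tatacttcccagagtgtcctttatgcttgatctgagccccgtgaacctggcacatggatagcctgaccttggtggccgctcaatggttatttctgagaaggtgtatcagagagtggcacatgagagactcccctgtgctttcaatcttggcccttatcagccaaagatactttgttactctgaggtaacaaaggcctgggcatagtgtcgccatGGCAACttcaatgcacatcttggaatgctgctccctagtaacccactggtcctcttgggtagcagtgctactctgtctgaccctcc
Tex101: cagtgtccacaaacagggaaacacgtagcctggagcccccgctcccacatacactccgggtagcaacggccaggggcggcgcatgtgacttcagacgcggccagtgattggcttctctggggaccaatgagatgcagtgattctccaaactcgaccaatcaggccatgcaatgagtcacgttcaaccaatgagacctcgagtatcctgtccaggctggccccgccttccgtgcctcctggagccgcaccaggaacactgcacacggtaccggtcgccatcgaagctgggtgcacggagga

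The capitals show an RFX short site in 3 of the 4 lower genes printed, Tex35, Tex37 and Tex33, and a stricter Myb site in Tex44. Tex43, also at least 2-fold lower, had no window here. The shorter Myb form, not capitalised, was in 1 or more windows of each of these 4 genes and of Tex101. In the printed windows of Tex35 and Tex37 the first base of the RFX match lies 120 bases before the start, and in that of Tex33 36 bases before it. From the other Tex35 starts the match lies 112 and 90 bases before. The Tex37 window ends at 70919172, inside the RefSeq span of the gene, which runs to 70951095. Among all 29 members with a window 20.7% held the RFX short site, against 14.1% of 27025 genes in the table of windows; Tex9, Tex19.2 and Tex36, none of them 2-fold lower, held it too. The stricter Myb form was in 31.0% of members and 25.9% of all genes, the shorter one in 89.7% and 82.4%, and the CRE short site in 13.8% and 23.0%. The full CRE site was in the windows of 0 of 29 members and of 2.03% of all genes. A match of these letters is a description of the window and not a measured binding site.

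Members of earlier germ cells showed no such drop, apart from a pair of Tex13 genes. Tex14 builds the bridges that keep dividing germ cells joined. It was at 70.4 RPKM in Piwil1-/- and 55.9 RPKM in Piwil1+/-, a ratio of 1.26 (1.22 to 1.30). Tex11, an X-linked gene needed for chromosome pairing and crossing over, was at 7.55 RPKM in Piwil1-/- and 6.77 RPKM in Piwil1+/-, a ratio of 1.12 whose interval of 0.998 to 1.25 holds 1. Both lay above the median of all genes.

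The Tex19 pair, paralogs that lie 27465 bp apart on chromosome 11, had similar ratios. Tex19.1, which restrains retrotransposons in germ cells, was at 5.77 RPKM in Piwil1-/- and 5.20 RPKM in Piwil1+/-, a ratio of 1.11 (0.945 to 1.30). Tex19.2 was at 3.71 RPKM in Piwil1-/- and 3.16 RPKM in Piwil1+/-, a ratio of 1.17 (1.005 to 1.37). The interval of Tex19.1 holds 1 and that of Tex19.2 begins just above it. Whether the pair share reads was not tested.

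The X-linked Tex13 family, first found among genes of spermatogonia, was the most divided. Tex13c2 was at 4.38 RPKM in Piwil1-/- and 1.53 RPKM in Piwil1+/-, from at least 699 and 253 reads. Its ratio was 2.87 (2.48 to 3.32), and its log2 difference stood at place 17 from the highest. Its paralog Tex13c1 was at 2.28 RPKM in Piwil1-/- and 5.25 RPKM in Piwil1+/-, from at least 415 and 992 reads, a ratio of 0.434 (0.386 to 0.487). Tex13c3, below the filter, was at 0.0302 RPKM in Piwil1-/- and 0.393 RPKM in Piwil1+/-. The 2 measured genes thus went in opposite directions, and the RPKM of the 3 added together came to 6.69 in Piwil1-/- against 7.17 in Piwil1+/-, for a ratio of 0.932. How alike the 3 sequences are and how reads that fit several of them were counted was not tested, so the value of each single Tex13c gene is uncertain. Tex13a was at 4.39 RPKM in Piwil1-/- and 5.26 RPKM in Piwil1+/-, a ratio of 0.834 (0.740 to 0.939), and Tex13b was near 0.09 RPKM with at least 5 reads in each library. Tex16, also X-linked, was at 6.16 RPKM in Piwil1-/- and 6.02 RPKM in Piwil1+/-.

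Tex101 had the largest upward log2 difference of the set, 1.29. It encodes a surface protein of germ cells that is anchored by a lipid and is needed for the maturation of ADAM3, a sperm protein used in passing into the oviduct, and it is known from spermatocytes and spermatids. Its level was 153.6 RPKM in Piwil1-/- and 62.3 RPKM in Piwil1+/-, from at least 29589 and 12456 reads. The ratio was 2.46 (2.41 to 2.52), and the log2 difference stood at place 12 from the highest of 9951 genes. The other Tex genes above 50 RPKM in Piwil1-/-, Tex2, Tex14 and Tex30, had ratios between 0.923 and 1.26. The nearest measured genes on either side of Tex101 on chromosome 7 (24668012 to 24672050, GRCm38.p6), Xrcc1 and Lypd4, had log2 differences of 0.0035 and -0.08.

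**Figure D3:**
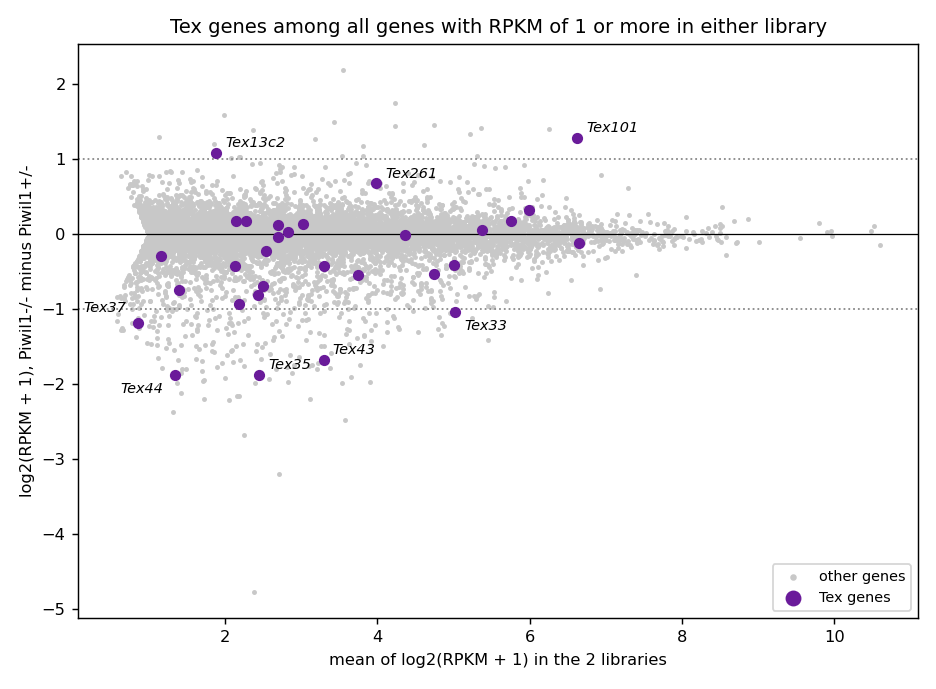
Log2 difference of Piwil1-/- minus Piwil1+/- against the mean log2 (RPKM + 1) of the 2 libraries for 9951 genes; purple points are the 30 Tex genes and grey points all others, and dotted lines mark 2-fold. Tex101 lies among the most abundant genes above the upper line, while the 5 lower Tex genes reach from low levels (Tex37) to a mean above 4 on the x axis (Tex33).

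Tex genes used in most tissues were close to level, again with 1 exception. Tex2, a lipid transfer protein of the endoplasmic reticulum, was at 95.2 RPKM in Piwil1-/- and 103.1 RPKM in Piwil1+/-, a ratio of 0.923 (0.915 to 0.932). Tex10, of a complex used in ribosome assembly, and Tex30 had ratios of 1.05 and 1.13. Tex264, a receptor for the autophagy of endoplasmic reticulum, had a ratio of 0.968 (0.812 to 1.15). Tex261, a membrane protein of the early secretory path, was at 19.0 RPKM in Piwil1-/- and 11.5 RPKM in Piwil1+/-, from at least 1128 and 707 reads, a ratio of 1.66 (1.51 to 1.82). The 5 genes had a median log2 difference of 0.07 and none passed 2-fold.

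Marker genes of germ cell stages gave the levels to which the Tex genes can be set. Of 6 measured elongating spermatid markers 5 were at least 2-fold lower in Piwil1-/-, beside 1.96% of all genes. The median log2 difference over the 6 was -1.31, beside -1.03 for the spermatid Tex genes. Prm2, Tnp2 and Smcp among the 6 reached 1 RPKM in Piwil1+/- alone and so had to be lower. The other 3, Odf1, Oaz3 and Akap4, were each at least 2-fold lower, beside 1.43% of all genes at 1 RPKM in both libraries. Their median was -1.34, beside -0.75 for the spermatid Tex genes at 1 RPKM in both libraries. Akap4, the main anchoring protein of the fibrous sheath, was at 25.8 RPKM in Piwil1-/- and 70.5 RPKM in Piwil1+/-, a ratio of 0.366 (0.356 to 0.377). Round spermatid markers had a median of -0.38 over 8 genes with 0 at least 2-fold lower, as Acrv1, an acrosomal protein, at 17.2 RPKM in Piwil1-/- and 26.0 RPKM in Piwil1+/-. Meiotic prophase markers had a median of 0.08 over 10 genes, late pachytene and division markers one of -0.05 over 5, and spermatogonial markers one of 0.04 over 4. Sertoli, Leydig, peritubular and leukocyte markers, with 3, 4, 3 and 2 measured genes, lay between -0.31 and 0.15, and the 2 measured red blood cell markers at -0.60 and -0.41. Prm1, Prm2 and Tnp1, which package the DNA of the sperm head, were listed at 0 in Piwil1-/-, against 0.0616, 1.42 and 0.458 RPKM in Piwil1+/-. The counting intervals of their ratios reached up to 40.5, 1.57 and 40.5, so each holds 1. As these use the smallest read numbers, they may be too wide. The summed RPKM of all 8 elongating markers was 52.2 in Piwil1-/- and 142.7 in Piwil1+/-, and its part in the lower Tex genes was not tested.

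**Figure D4:**
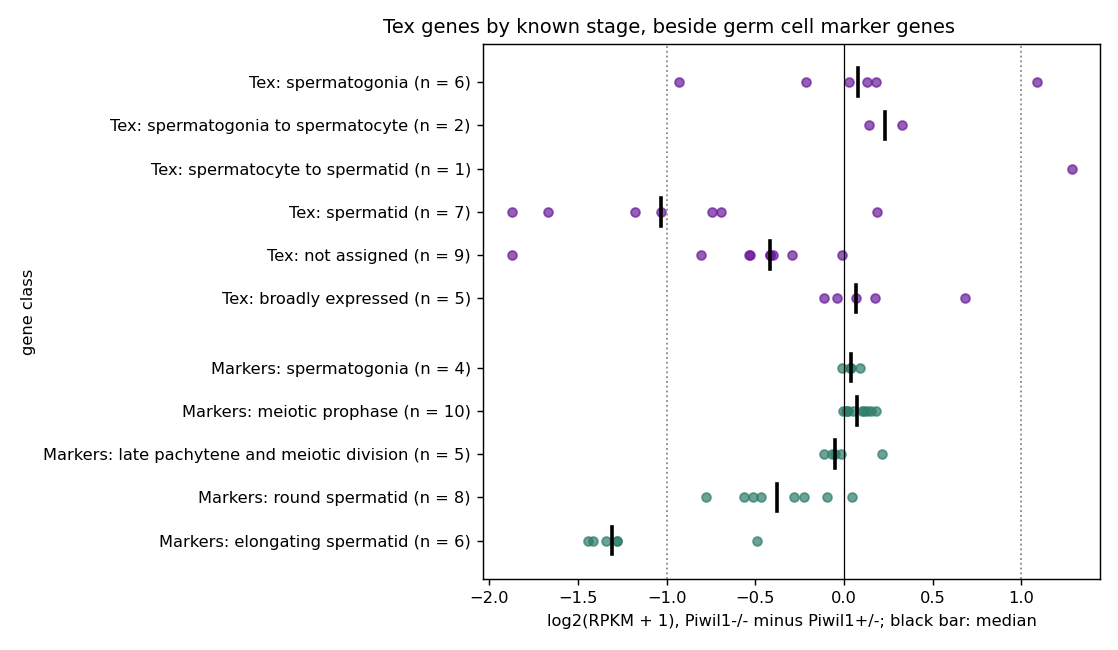
Log2 difference of Piwil1-/- minus Piwil1+/- for the measured Tex genes by known stage (purple, upper rows) and for marker genes of germ cell stages (green, lower rows); each point is a gene, black bars are medians, and dotted lines mark 2-fold. Medians are -1.03 for the spermatid Tex genes, -0.38 for the round spermatid markers and -1.31 for the elongating spermatid markers, where 2 of the Tex genes and 3 of the elongating markers passed the filter through Piwil1+/- alone.

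By chromosome, 7 of the 34 members with a RefSeq position were on the X chromosome, which is silenced in male meiosis. Of these, 4 passed the filter, with a median log2 difference of -0.09 and none past 2-fold on the log2 (RPKM + 1) scale. Tex13c1, among the 4, had a plain ratio of 0.434. The 25 measured autosomal members had a median of -0.40. Among them 5 were at least 2-fold lower and 1 higher, beside 1.96% and 0.231% of all genes. Tex13c2, of the X-linked Tex13 family and with a log2 difference of 1.09, had no RefSeq position here and is in neither count. The X-linked count therefore leaves out a member past 2-fold.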

How the data were processed

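The authors deposited RPKM values, 1 column per genotype, per the file headers. Per the labels' protocols, ribosomal RNA was removed from total testis RNA before directional TruSeq libraries were made; STAR, Bowtie and mm10 are named in the submitters' processing notes without settings. The read counter and its gene annotation were not stated. The table of PIWIL1-bound small RNAs names no gene and was not used.

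Symbols were looked up by identifier (22444 of 22808 found). Log2 differences used a pseudocount of 1 RPKM, for genes that reached 1 RPKM in at least 1 library. Whole reads were recovered from the RPKM values: 23 of 184 genes with a RefSeq span under 1500 bp gave the same library total, and at these totals 16555 of 16558 genes detected in both libraries gave whole reads. These are the smallest numbers that give both values, hence "at least". Exact binomial (Clopper-Pearson) intervals came from these smallest numbers and can be wider than the full read numbers would give. Scripts ran in Python 3.11.15 with scipy 1.17.1 and were tested on simulated data. Alternatives were other pseudocounts, filters, scaling and symbol rules.

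Members, stages, motifs and marker lists were chosen with earlier results of these data known; stages come from general knowledge. Members that passed the filter were named with values, and the rest listed. Promoter windows are RefSeq's, GRCm38.p6.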

Additional observations from a re-analysis of the deposited data

How the results depend on the processing

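With 1 library per genotype no replicate could be left out. No paired analysis was possible because each genotype has a single library. The number of Tex genes at least 2-fold lower was 5 of 30, beside 1.96% of all genes. It was between 3 and 7 across the 7 alternatives, where the share of all genes lay between 1.08% and 3.34%. The 7 came with a pseudocount of 0.1 RPKM, beside 3.34% of all genes. With an RPKM of at least 1 in both libraries, an alternative added after the data were seen, the number was 3 of 28, beside 1.43%. With a mean RPKM of 5 or more it was 3 of 18, beside 1.66%, and Tex44 and Tex37 were not among the 18. The number at least 2-fold higher was 2, beside 0.231% of all genes. It was 1 under that filter, beside 0.266%. It was also 1 when symbols with a paralog suffix were left out, beside 0.231%, in both cases Tex101 alone. The median of the spermatid Tex genes lay between -0.75 and -1.35 and that of the other placed members between 0.10 and 0.15. The -1.35 came with a mean RPKM of 5 or more, where only 2 spermatid members were left. The -0.75 came with an RPKM of at least 1 in both libraries, where 5 were left. Piwil1, at 0 in Piwil1-/-, had a log2 difference of -4.77, which became -8.04 with a pseudocount of 0.1 RPKM and -5.74 with one of 0.5 RPKM, as follows from adding a smaller number to 0. Tex13c1 passed 2-fold lower with both smaller pseudocounts (-1.17 and -1.05), and Tex45 with 0.1 RPKM (-1.15). Of 221 values of single members under these 8 alternatives, 0 changed sign, but only the rescaling could change one. Filters and symbol rules leave a value as it is, and a pseudocount keeps its sign. The 12 values that left the range of their counting interval, as it stands on the log2 (RPKM + 1) scale, were all under the smaller pseudocounts. These bring a value nearer to the plain ratio. Depth limits Tex37, Tex48 and the 5 members below the filter.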

Other observations

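The nearest measured genes on each side of 6 of the 7 members past 2-fold gave 12 neighbours, of which 0 were past 2-fold, where 1.96% of all genes were at least 2-fold lower and 0.231% higher. Their log2 differences of Piwil1-/- minus Piwil1+/- were between -0.63 and 0.46. Over all 29 measured members with a position, 1 of 58 neighbours was past 2-fold, Gm8251 beside Tex30, at 1.15 RPKM in Piwil1-/- and 6.07 RPKM in Piwil1+/-. At these shares nothing is read from 12 or 58 genes. These counts were made after the values of the members were seen.

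Tex261 lies on chromosome 6 (83768881 to 83776099, GRCm38.p6), 193054 bp from Stambp, the gene with the highest log2 difference in the table at 2.19. Between them, Ankrd53, an ankyrin repeat gene 526 bp from Tex261, was at 1.76 RPKM in Piwil1-/- and 3.92 RPKM in Piwil1+/-, while Tex261 was at 19.0 RPKM in Piwil1-/- and 11.5 RPKM in Piwil1+/-. Nagk, the next measured gene on the other side, was at 8.49 RPKM in Piwil1-/- and 10.2 RPKM in Piwil1+/-. Higher and lower genes thus lay side by side there, and no cause was tested.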
